A study of Mus musculus with 24 samples.

Results

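The pyruvate and lactate genes described here are 10 genes: the pyruvate dehydrogenase kinases Pdk1, Pdk2, Pdk3 and Pdk4, the pyruvate dehydrogenase subunit Pdha1, the mitochondrial pyruvate carrier subunits Mpc1 and Mpc2, and the lactate dehydrogenases Ldha, Ldhb and Ldhd. They were named by gene symbol as a pathway, with earlier results of these data known, and all 10 were found among the 29671 genes with a count in at least 1 kidney. All 10 also passed the filter on low counts that left 16092 genes for testing.

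RNA from whole kidneys of 24 mice was sequenced, with 6 separate mice in each of 4 groups. The cKO mice carried Pex5lox/lox together with the transgenes Pax8-rtTA and LC1, which direct a doxycycline-dependent Cre to the renal tubule, and their littermate controls (Ctrl) carried Pex5lox/lox alone. Both genotypes, on a C57BL/6J background, drank doxycycline (DOX) for 2 weeks from 8 weeks of age, and kidneys were taken 4 weeks after DOX ended. The sources give different circadian times, ZT9 for tissue collection and ZT3 for experiments. The groups were control males (Ctrlm), knockout males (cKOm), control females (Ctrlf) and knockout females (cKOf). Controls lacked the rtTA and Cre transgenes, so an effect of these transgenes under DOX cannot be told apart from that of the deletion. Reads assigned to genes ranged from 19376152 to 28470831 per kidney, with a median of 21592602. The 10 genes had between 346 reads (Pdk4 in a Ctrlm kidney) and 47484 reads (Ldhb in a cKOf kidney), so none was near the limit of detection.

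Pyruvate enters mitochondria through a carrier built of MPC1 and MPC2, and the pyruvate dehydrogenase complex, of which PDHA1 is the catalytic alpha subunit, turns it into acetyl-CoA. The PDK enzymes phosphorylate PDHA1 and switch the complex off, and Pdk4 is known for its induction in fasting and by fatty acids acting through PPARα. LDHA and LDHB form the tetramers that interconvert pyruvate and L-lactate, LDHD oxidises D-lactate in mitochondria, and the kidney takes up lactate for oxidation and for glucose production in the proximal tubule.

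Pex5, which encodes the import receptor for peroxisomal matrix proteins, was measured first as a check of the labels. Its level in CPM (counts scaled to the size of each library, after TMM normalization) was 49.1 to 62.8 in Ctrlm (median 53.3), 41.8 to 47.3 in cKOm (median 43), 43 to 61.7 in Ctrlf (median 48.2) and 38 to 48.5 in cKOf (median 44.1). The male groups did not overlap, and the female groups did. The log2 fold change was -0.31 (SE 0.08) in males (edgeR, Benjamini-Hochberg adjusted p = 0.0219) and -0.21 (SE 0.08) in females (edgeR, Benjamini-Hochberg adjusted p = 0.177). Reads over the whole gene were counted, in a tissue that also holds cells outside the tubule, so the labels are checked by a direction rather than by a loss of signal. Tubule markers were abundant in every kidney: the 11 proximal tubule markers summed to between 9909 and 15549 CPM, with Slc34a1, Slc27a2 and Lrp2 the most abundant.

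The question put to these data was which of the 10 genes differed between cKO and Ctrl kidneys in each sex. In males, 5 of the 10 genes passed the threshold of 0.05 on the adjusted p (edgeR, Benjamini-Hochberg), against 9.05% of all genes tested. Of these, 2 were higher in cKOm (4.14% of all genes) and 3 were lower (4.9% of all genes). The 6 and 6 kidneys did not overlap for 3 of the 10 genes, against 7.38% of all genes. In females, 0 of the 10 genes passed the edgeR threshold, against 0.851% of all genes (0.391% higher and 0.46% lower), and for 0 of 10 the kidneys did not overlap, against 0.559% of all genes. At an unadjusted p under 0.05 there was 1 of 10 in females, Pdk4, beside 1083 of all 16092 genes. DESeq2 also called 0 of the 10, with 188 genes in all, and limma-voom called 1, again Pdk4, with 133 genes in all. The median log2 fold change of the 10 genes was -0.16 in males and 0.00 in females, beside 0.01 and 0.00 over all genes tested.

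**Figure D1:**
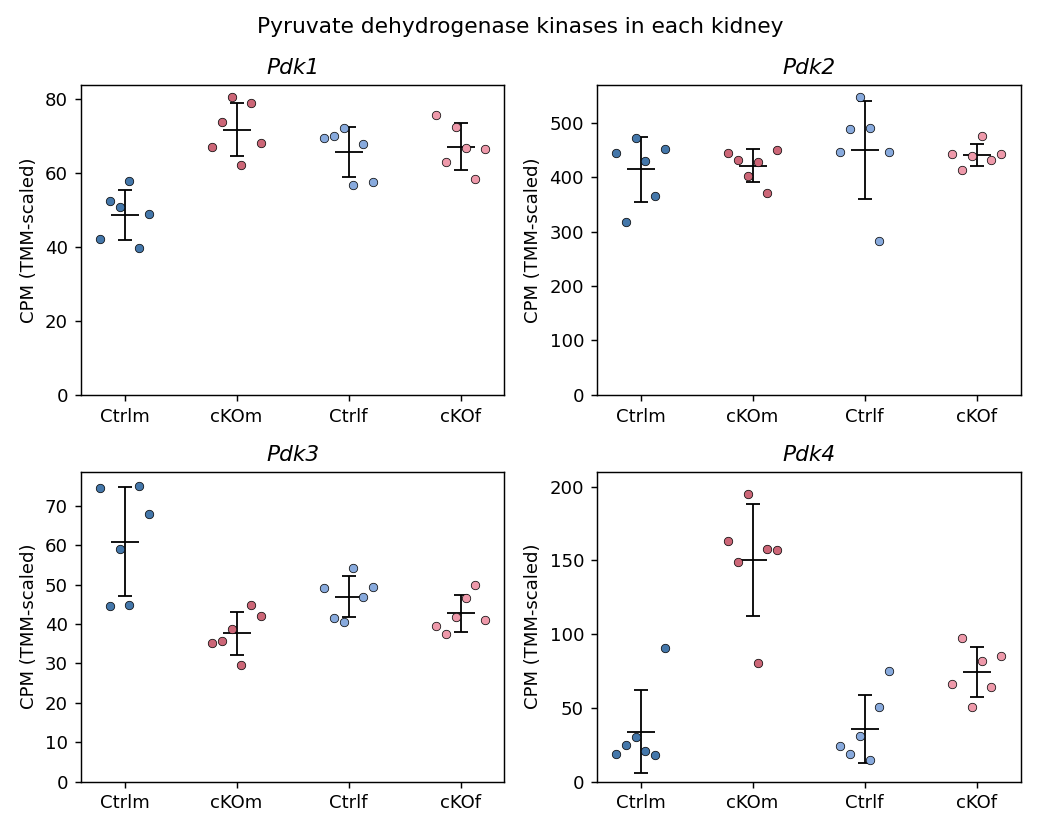
CPM of Pdk1, Pdk2, Pdk3 and Pdk4 in each kidney (points, 6 per group), with the mean (horizontal mark) and SD (bars). Pdk1 and Pdk4 sit higher in cKOm than in Ctrlm, Pdk3 sits lower, and 1 Ctrlm kidney holds 90.3 CPM of Pdk4.

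Among the kinases, Pdk4 had the largest log2 fold change of the 10 genes in males. Pdk4 (chr6:5483351-5496309, minus strand, GRCm38) was 18 to 90.3 CPM in Ctrlm (median 22.5) and 80.4 to 195 CPM in cKOm (median 157). Of the 6 cKOm kidneys, 5 lay above every Ctrlm kidney, and the overlap came from Ctrlm kidney 6 at 90.3 CPM and cKOm kidney 4 at 80.4 CPM. In females the level was 15 to 74.7 CPM in Ctrlf (median 27.7) and 50.6 to 97.1 CPM in cKOf (median 73.9). Here 3 of 6 cKOf kidneys lay above all Ctrlf kidneys, with Ctrlf kidneys 5 and 6 at 50.6 and 74.7 CPM inside the cKOf range. Pdk4 rose in males by a log2 fold change of 2.15 (SE 0.37; edgeR, Benjamini-Hochberg adjusted p = 3.4e-04), and the change in females was 1.05 (SE 0.36; edgeR, Benjamini-Hochberg adjusted p = 0.102). Without Ctrlm kidney 6 the male value was 2.71 (edgeR, Benjamini-Hochberg adjusted p = 1.9e-06, range over the alternatives 5.5e-07 to 0.00803). Without Ctrlf kidney 6 the female value was 1.40 (edgeR, adjusted p = 0.0166), which passed the threshold, as it did with limma-voom (1.23, Benjamini-Hochberg adjusted p = 0.0245) and with replicate number as a block (1.26, edgeR, adjusted p = 0.0138). Over all alternatives (edgeR, limma-voom and DESeq2, each Benjamini-Hochberg adjusted) the adjusted p in females ranged from 9.9e-04 to 0.447.

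In each sex, the control kidney with the highest Pdk4 also held adipocyte transcripts. The summed level of 6 adipocyte markers, of which Cfd was the most abundant, was 46.2 CPM in Ctrlm kidney 6 and 230 CPM in Ctrlf kidney 6, and Lep was near 0 in each group. It was at most 15.3 CPM in the other Ctrlm kidneys and at most 2.56 CPM in the other Ctrlf kidneys, Ctrlf kidney 5 among them at 1.5 CPM. In cKOm it ranged from 1.61 to 70.7 CPM (highest in kidney 1) and in cKOf from 0.439 to 35.4 CPM, and none of its 5 tested markers passed the threshold in either sex. With the adipocyte score as a covariate, an alternative chosen after seeing the data, Pdk4 changed by 2.33 in males (edgeR, Benjamini-Hochberg adjusted p = 1.7e-05) and 1.05 in females (edgeR, adjusted p = 0.0422). With the 3 kidneys over 40 CPM left out, the values were 2.69 in males (edgeR, Benjamini-Hochberg adjusted p = 5.5e-07) and 1.40 in females (edgeR, adjusted p = 9.9e-04), the lowest adjusted p of all alternatives in both sexes, where the highest were 0.00803 and 0.447. That limit of 40 CPM was set with the Pdk4 levels of these kidneys known, and the part of fat tissue in the spread of Pdk4 was not tested beyond these fits.

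Pdk1 (chr2:71873224-71903858, plus strand) was 39.8 to 57.9 CPM in Ctrlm (median 49.8), 62 to 80.5 CPM in cKOm (median 71), 56.6 to 72.1 CPM in Ctrlf (median 68.6) and 58.3 to 75.7 CPM in cKOf (median 66.7). All 6 cKOm kidneys lay above all Ctrlm kidneys, within or slightly above the female range. Pdk1 rose in males by 0.56 on the log2 scale (SE 0.09; edgeR, Benjamini-Hochberg adjusted p = 2.4e-04), with 0.03 (SE 0.09) in females. Pdk3 (chrX:93764607-93832201, minus strand), the other kinase that changed, went the other way. It was 44.5 to 75 CPM in Ctrlm (median 63.4), 29.5 to 44.9 CPM in cKOm (median 37.3), 40.6 to 54.3 CPM in Ctrlf (median 48) and 37.4 to 49.9 CPM in cKOf (median 41.4). Of the cKOm kidneys, 5 of 6 lay below every Ctrlm kidney, and cKOm kidney 5 (44.9 CPM) overlapped with Ctrlm kidneys 2 and 4 (44.5 and 44.7 CPM). The log2 fold change of Pdk3 was -0.69 in males (SE 0.13; edgeR, Benjamini-Hochberg adjusted p = 6.5e-04) and -0.14 (SE 0.13) in females.

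Pdk2 (chr11:95026258-95041354, minus strand) was the most abundant kinase per length in all 4 groups. Its kidneys ranged from 282 to 548 CPM over the 4 groups, the groups overlapped, and the log2 fold change was 0.02 (SE 0.11) in males and -0.03 (SE 0.11) in females, the male value turning to -0.04 without Ctrlm kidney 2. Per kilobase of exon, Pdk2 made up 76.8% ± 3.79 (SD, n = 6) of the summed kinase level in Ctrlm, 66.7% ± 5.42 in cKOm, with 78.8% ± 6.16 for Ctrlf and 75% ± 1.82 for cKOf. The share of Pdk4 was 5.42% ± 3.7 (SD, n = 6) in Ctrlm, 21.3% ± 4.62 in cKOm, with 5.94% ± 4.1 for Ctrlf and 11.4% ± 2.51 for cKOf. In single kidneys this share per kilobase ran from 2.99% to 12.8% in Ctrlm and from 12.9% to 26.7% in cKOm, without overlap. As a share of CPM, Ctrlm kidney 6 lay above cKOm kidney 4. The gap between the male groups thus depended on the division by exon length. No test was made on these shares.

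Downstream of the kinases, Pdha1 (chrX:160122209-160138413, minus strand) encodes the subunit that they phosphorylate. It ranged from 572 to 678 CPM in Ctrlm, 581 to 673 CPM in cKOm, 510 to 573 CPM in Ctrlf and 539 to 646 CPM in cKOf. The log2 fold change was 0.00 (SE 0.06) in males and 0.05 (SE 0.06) in females. The gene overlaps Map3k15 on the opposite strand, whose mean level was 48.4 CPM in Ctrlm and 42 CPM in cKOm; the libraries were made with a stranded kit, but the strand setting of the counting was not given in the sources used here.

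The pyruvate carrier genes did not pass the threshold in either sex. Mpc1 (chr17:8282904-8297661, plus strand) ranged from 32.9 to 81 CPM in Ctrlm and 33.5 to 54.4 CPM in cKOm, with a log2 fold change of -0.32 (SE 0.17; edgeR, Benjamini-Hochberg adjusted p = 0.371). Mpc2 (chr1:165460637-165481214, plus strand) ranged from 110 to 171 CPM in Ctrlm and 102 to 118 CPM in cKOm, with 3 of 6 cKOm kidneys below every Ctrlm kidney. Its log2 fold change in males was -0.32 (SE 0.10; edgeR, Benjamini-Hochberg adjusted p = 0.0834). The call depended on the setting: without Ctrlm kidney 4 the value was -0.37 (edgeR, Benjamini-Hochberg adjusted p = 0.036, range over the alternatives 0.036 to 0.225), and it also passed in DESeq2 (-0.34, adjusted p = 0.037), with each sex fitted alone (-0.34, edgeR, adjusted p = 0.0392) and with adjustment within each sex (-0.32, edgeR, adjusted p = 0.0464). In females the changes were 0.14 (SE 0.17) for Mpc1 and -0.03 (SE 0.10) for Mpc2, the latter turning to at most 0.04 without Ctrlf kidney 5. The ratio of Mpc1 to Mpc2 per kilobase was 1.34 ± 0.267 (SD, n = 6) in Ctrlm, 1.35 ± 0.171 in cKOm, with 1.28 ± 0.238 for Ctrlf and 1.45 ± 0.226 for cKOf. By CPM the mean ratio was 0.38 in Ctrlm and 0.382 in cKOm, so which gene was higher depended on the division by exon length. Mpc1 counts are uncertain to a degree, because the processed pseudogene Mpc1-ps matches 261 bases of its transcript at 100% identity. Reads assigned to the 3 copies of Mpc1 came to 12.7% of those assigned to Mpc1, and Mpc1-ps averaged 6.78 CPM in Ctrlm and 5.74 CPM in cKOm.

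**Figure D2:**
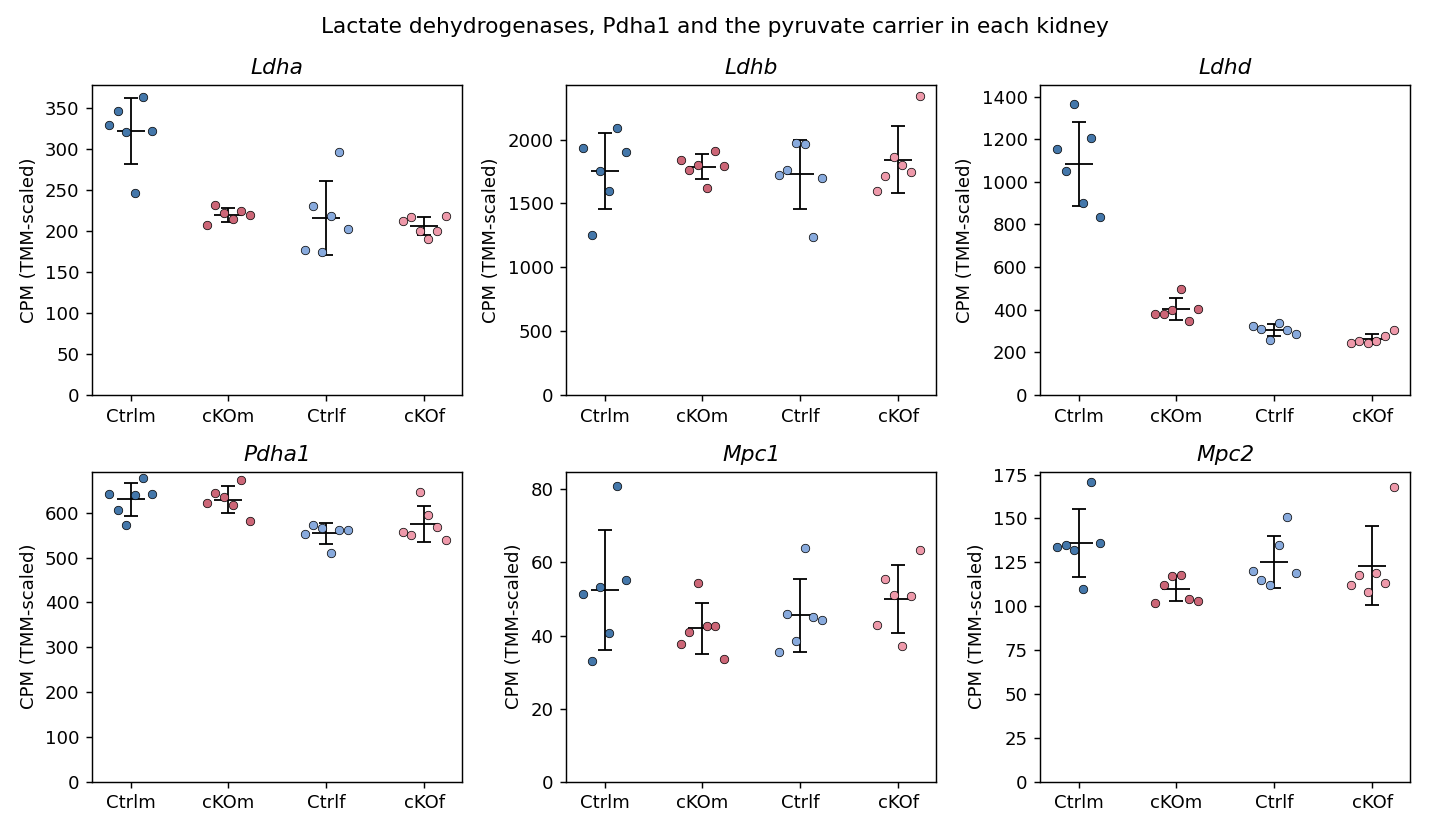
CPM of Ldha, Ldhb, Ldhd, Pdha1, Mpc1 and Mpc2 in each kidney (points, 6 per group), with the mean (horizontal mark) and SD (bars). Ldhd holds 834 to 1365 CPM in Ctrlm and 348 to 498 CPM in cKOm, with no female kidney above 338 CPM.

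The lactate dehydrogenases split into a gene that did not pass the threshold, Ldhb, and a pair that fell in males. Ldhd (chr8:111623785-111630374, minus strand), the D-lactate dehydrogenase, was 834 to 1365 CPM in Ctrlm (median 1103) and 348 to 498 CPM in cKOm (median 390). It was 260 to 338 CPM in Ctrlf (median 309) and 242 to 304 CPM in cKOf (median 255). All 6 cKOm kidneys lay below all Ctrlm kidneys and above all female kidneys, and 4 of 6 cKOf kidneys lay below every Ctrlf kidney. Ldhd fell in males by a log2 fold change of -1.43 (SE 0.11; edgeR, Benjamini-Hochberg adjusted p = 1.2e-09), to 0.37 times the level in Ctrlm, and the female value was -0.21 (SE 0.10; edgeR, Benjamini-Hochberg adjusted p = 0.334). Over all alternatives the male value stayed between -1.53 and -1.24. Znrf1, which overlaps Ldhd on the opposite strand, averaged 26.2 CPM in Ctrlm and 27.8 CPM in cKOm.

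Ldha (chr7:46841475-46855627, plus strand), the subunit typical of lactate-producing tissue, was 247 to 363 CPM in Ctrlm (median 326) and 207 to 232 CPM in cKOm (median 221). It was 174 to 296 CPM in Ctrlf (median 210) and 190 to 218 CPM in cKOf (median 206). The cKOm kidneys all lay below the Ctrlm kidneys and inside the Ctrlf range. The log2 fold change of Ldha was -0.55 in males (SE 0.10; edgeR, Benjamini-Hochberg adjusted p = 7.8e-04) and -0.07 (SE 0.10) in females, where it turned to 0.04 without Ctrlf kidney 5. The transcript of Ldha is matched by 13 processed pseudogenes, but their reads came to 0.0325% of those of Ldha.

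Ldhb (chr6:142490249-142507957, minus strand), the subunit typical of heart and kidney tubule, had the highest level per length of the 10 genes. It ranged from 1251 to 2088 CPM in Ctrlm, 1620 to 1907 CPM in cKOm, 1234 to 1976 CPM in Ctrlf and 1598 to 2340 CPM in cKOf, with all groups overlapping. The log2 fold change was 0.03 (SE 0.11) in males, with a sign that turned in some alternatives, and 0.09 (SE 0.11) in females. A readthrough form of LDHB is known to carry a peroxisomal signal that PEX5 reads, and gene counts do not separate it from the main form. Per kilobase, Ldhb made up 91.8% ± 1.74 (SD, n = 6) of the sum of Ldha and Ldhb in Ctrlm, 94.5% ± 0.333 in cKOm, with 94.2% ± 2.22 for Ctrlf and 94.9% ± 0.624 for cKOf. In single Ctrlm kidneys the share was 88.4% to 93.2%, below the 94.1% to 94.9% of the cKOm kidneys.

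**Figure D3:**
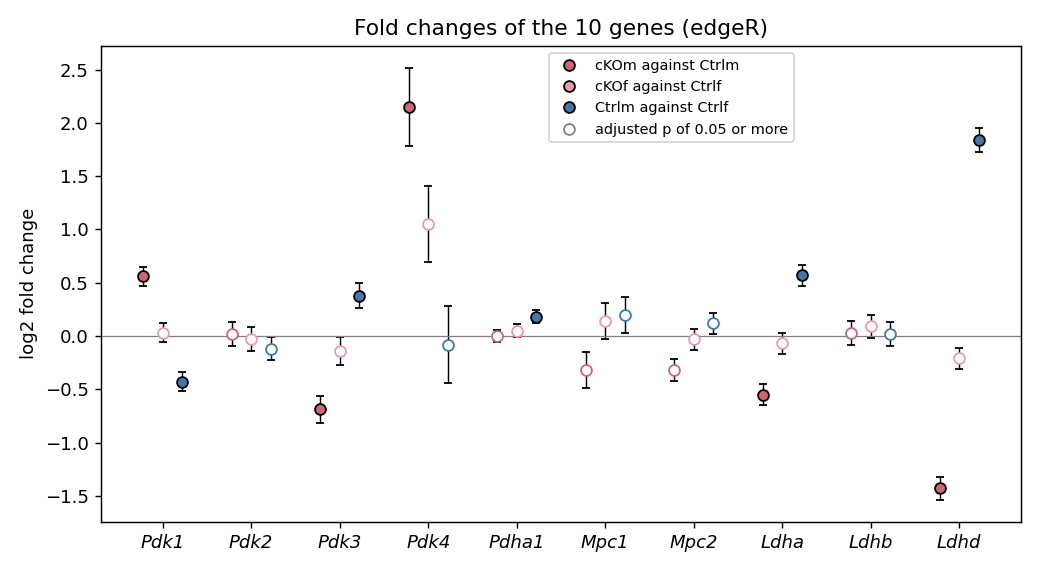
log2 fold change (edgeR) of the 10 genes in cKOm against Ctrlm, cKOf against Ctrlf and Ctrlm against Ctrlf, with bars of 1 SE; filled points have a Benjamini-Hochberg adjusted p under 0.05. Pdk4 has the largest value in the male knockout comparison and Ldhd the lowest; the male knockout and sex comparisons share the Ctrlm kidneys.

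The difference between the sexes was tested directly as an interaction, the male log2 fold change minus the female. For Pex5 itself the log2 fold change was -0.31 in males and -0.21 in females, where the paper proposes incomplete excision. The part of this in the interaction was not tested. Of the 10 genes, 2 passed, against 2.31% of all genes tested: Ldhd at -1.23 (SE 0.15; edgeR, Benjamini-Hochberg adjusted p = 9.8e-06) and Pdk1 at 0.53 (SE 0.13; edgeR, Benjamini-Hochberg adjusted p = 0.0287). The Ldhd value lay between -1.32 and -1.05 over all alternatives and passed the threshold in each. The Pdk1 call was lost without any 1 of 8 kidneys, namely Ctrlf 2 and 3, Ctrlm 1 and 5, cKOf 2 and 5, and cKOm 3 and 5 (0.47 to 0.51, edgeR, Benjamini-Hochberg adjusted p = 0.0507 to 0.0633). It was also lost with the hepatocyte score as a covariate (0.47, edgeR, Benjamini-Hochberg adjusted p = 0.125) and with replicate number as a block (0.52, edgeR, adjusted p = 0.0522), over a range of 0.00978 to 0.125. For Pdk4 the interaction was 1.10 (SE 0.51; edgeR, Benjamini-Hochberg adjusted p = 0.338), so a larger effect in males was not shown with all kidneys. The Pdk4 value was 1.66 without Ctrlm kidney 6 (edgeR, Benjamini-Hochberg adjusted p = 0.0218), 0.75 without Ctrlf kidney 6 (edgeR, adjusted p = 0.549) and 0.59 with the hepatocyte score (edgeR, adjusted p = 0.687), over a range of 0.0218 to 0.687. For Ldha it was -0.48 (SE 0.14; edgeR, Benjamini-Hochberg adjusted p = 0.0783), which passed without Ctrlf kidney 5 (-0.61, edgeR, adjusted p = 0.004) or Ctrlm kidney 4 (-0.54, edgeR, adjusted p = 0.0265), and in DESeq2 (-0.50, adjusted p = 0.0317), over a range of 0.004 to 0.182. For Pdk3 it was -0.55 (SE 0.18; edgeR, Benjamini-Hochberg adjusted p = 0.108), which passed without Ctrlm kidney 2 (-0.63, edgeR, adjusted p = 0.0388) or 4 (-0.63, edgeR, adjusted p = 0.0443), and in DESeq2 (-0.57, adjusted p = 0.0487), over a range of 0.0388 to 0.2.

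Between control kidneys of the sexes, 5 of the 10 genes differed, against 16.8% of all genes tested. Of these, 4 were higher in Ctrlm (8.71% of all genes) and 1 was lower (8.11% of all genes), and for 1 of 10, Ldhd, the groups did not overlap (7.35% of all genes). Ldhd was higher in Ctrlm by a log2 fold change of 1.84 (SE 0.11; edgeR, Benjamini-Hochberg adjusted p = 4.1e-13), or 3.57 times, with 6 of 6 Ctrlm kidneys above all Ctrlf kidneys. Ldha was higher by 0.57 (SE 0.10; edgeR, Benjamini-Hochberg adjusted p = 1.4e-04), with 5 of 6 above. For Pdk1 the value was -0.43 (SE 0.09; edgeR, Benjamini-Hochberg adjusted p = 0.00144), with 5 of 6 Ctrlm kidneys below all Ctrlf kidneys, a call lost with the hepatocyte score as a covariate (-0.34, edgeR, adjusted p = 0.129, range over the alternatives 3.0e-04 to 0.129). Pdk3 was higher by 0.38 (SE 0.12; edgeR, Benjamini-Hochberg adjusted p = 0.037), with 4 of 6 above. This call was lost without any 1 of Ctrlf kidneys 2 and 3 and Ctrlm kidneys 1, 3, 5 and 6 (0.31 to 0.38, edgeR, Benjamini-Hochberg adjusted p = 0.0517 to 0.11, range over the alternatives 0.00921 to 0.11). Pdk3 was also not called by limma-voom (0.35, Benjamini-Hochberg adjusted p = 0.0591) or with the 3 kidneys over 40 CPM of adipocyte markers left out (0.37, edgeR, adjusted p = 0.0833). Pdha1 was higher by 0.18 (SE 0.06; edgeR, Benjamini-Hochberg adjusted p = 0.036), with 5 of 6 above. That call was lost without any 1 of Ctrlf kidneys 1 and 6 and Ctrlm kidneys 1, 4 and 5 (0.16 to 0.19, edgeR, Benjamini-Hochberg adjusted p = 0.0538 to 0.081, range over the alternatives 0.00354 to 0.11). Pdha1 was also not called with every gene with a count kept (0.20, edgeR, Benjamini-Hochberg adjusted p = 0.11), the block (0.18, edgeR, adjusted p = 0.0652), the hepatocyte score (0.25, edgeR, adjusted p = 0.0642) or those 3 kidneys left out (0.20, edgeR, adjusted p = 0.0645). Both the male knockout comparison and this one share the Ctrlm kidneys. Side by side, the log2 values for cKOm against Ctrlm and Ctrlm against Ctrlf were -1.43 and 1.84 for Ldhd, -0.55 and 0.57 for Ldha, 0.56 and -0.43 for Pdk1, and -0.69 and 0.38 for Pdk3. Sharing Ctrlm alone pushes such values to opposite signs, so no pattern is read from them. For Pdk4 they were 2.15 and -0.08 (SE 0.36), the latter with a sign that depended on the setting.

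Ordered by level per kilobase of exon in Ctrlm, Ldhb came first at 1118 ± 190 CPM per kilobase (SD, n = 6), followed by Ldhd at 204 ± 37, Pdha1 at 169 ± 9.75, Pdk2 at 131 ± 18.8 and Ldha at 97.2 ± 12. Ldhd and Pdha1 overlapped between kidneys (156 to 256 and 153 to 182), while Pdha1 and Pdk2 did not (Pdk2 100 to 149). The low group held Mpc1 at 25.2 ± 7.88, Pdk3 at 23.8 ± 5.44, Mpc2 at 18.6 ± 2.66, Pdk4 at 9.63 ± 7.98 and Pdk1 at 6.25 ± 0.864 CPM per kilobase, with each overlapping its neighbour in the order. Ctrlm kidney 6 held 25.7 CPM per kilobase of Pdk4 and the other Ctrlm kidneys 5.14 to 8.72, beside 5.12 to 7.44 for Pdk1. In cKOm, Ldhd held the 4th place at 75.4 ± 9.65, below Pdha1 at 168 ± 8.16 and Pdk2 at 133 ± 9.42, and Pdk4 the 6th at 42.9 ± 10.8, above Mpc1 at 20.2 ± 3.38 and Pdk3 at 14.7 ± 2.13. In females Ldhd was at 57 ± 5.22 in Ctrlf and 49.4 ± 4.41 in cKOf, below Ldha at 65.4 ± 13.5 and 62.3 ± 3.38. The Ctrlf kidneys overlapped, at 48.8 to 63.4 for Ldhd and 52.7 to 89.3 for Ldha. By mean CPM the order was the reverse, with Ldhd at 304 in Ctrlf and 263 in cKOf and Ldha at 216 and 206. Which of these 2 genes was higher thus depended on the division by exon length.

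Most markers of the proximal tubule were lower in cKOm than in Ctrlm. The 11 proximal tubule markers, of the segment that makes glucose from lactate, summed to 13981 ± 879 CPM (SD, n = 6) in Ctrlm, 10296 ± 410 in cKOm, with 12150 ± 567 for Ctrlf and 11654 ± 505 for cKOf. Of them, 8 were lower in cKOm and 0 higher (edgeR), beside 4.9% and 4.14% of all genes. Their median log2 fold change in males was -0.38, and none passed in females. Slc7a13 and Cyp7b1 were nearly absent in females, so the sums are not alike between the sexes. In Ctrlm, cKOm, Ctrlf and cKOf the mean of Slc7a13 was 817, 171, 2.2 and 1.53 CPM. That of Cyp7b1 was 143, 24.3, 2.49 and 2.26 CPM. The markers did not move alike in males: the mean of Slc22a7 was 227 CPM in Ctrlm and 13.2 CPM in cKOm, while that of Slc5a12 was 320 and 495 CPM and that of Slc5a2 326 and 349 CPM. In the thick ascending limb list, led by Umod, 1 of 5 markers was higher in cKOm and 0 lower, and in the distal convoluted tubule list, led by Slc12a3, 0 of 3 passed. Of 5 intercalated cell markers, led by Atp6v1b1, 2 were higher and 1 lower in cKOm, and 1 was lower in cKOf. In whole kidney, fewer cells of a type and less RNA per cell cannot be told apart, and the part of these shifts in the values of the 10 genes was not tested.

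Hepatocyte transcripts also differed between groups. The 9 hepatocyte markers, all tested and led by Alb, summed to 879, 904, 975, 489, 200 and 116 CPM in Ctrlm kidneys 1 to 6, to 136 to 529 CPM in cKOm (highest in kidney 4), 83.5 to 125 CPM in Ctrlf and 60.8 to 133 CPM in cKOf. All 9 were higher in Ctrlm than in Ctrlf, while in cKOm against Ctrlm 3 were lower and 1 was higher (edgeR). Within Ctrlm the highest sum (kidney 3, 975 CPM) went with the highest Ldhd (1365 CPM) and the lowest (kidney 6, 116 CPM) with the lowest (834 CPM), while kidney 5, at 200 CPM, held 1204 CPM of Ldhd. In cKOm, kidney 4 was highest for both (529 and 498 CPM). With the hepatocyte score as a covariate, the male calls kept their sides: Ldhd -1.24 (edgeR, Benjamini-Hochberg adjusted p = 3.3e-08), Ldha -0.62 (edgeR, adjusted p = 0.00243), Pdk3 -0.82 (edgeR, adjusted p = 9.2e-04), Pdk1 0.49 (edgeR, adjusted p = 0.0137) and Pdk4 1.62 (edgeR, adjusted p = 0.00803). Over all alternatives the highest adjusted p (edgeR, limma-voom and DESeq2, each Benjamini-Hochberg adjusted) was 1.7e-06 for Ldhd, 0.00567 for Ldha, 0.00565 for Pdk3, 0.0137 for Pdk1 and 0.00803 for Pdk4. Skeletal muscle markers, led by Myh4, reached 544 CPM in Ctrlf kidney 4, 117 CPM in Ctrlf kidney 5, and 87.4, 118 and 97.5 CPM in cKOf kidneys 1, 4 and 6, against at most 6.31 CPM in cKOm and 41.3 CPM in Ctrlm. Their part in the female values was not tested.

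The counts of related genes that follow stand beside 9.05% of all genes called in males (4.14% higher, 4.9% lower) and 0.851% in females. Around the 10 genes, the rest of the pyruvate dehydrogenase complex and its phosphatases showed 1 of 7 genes lower in cKOm and 0 higher, Dlat, the E2 core enzyme, at -0.23 with no overlap of the male groups (edgeR, Benjamini-Hochberg adjusted p = 0.0322). Of 6 other pyruvate-using enzymes, 4 fell in males: Pcx, pyruvate carboxylase (-0.51), Gpt (-1.22) and Gpt2 (-0.40), alanine transaminases, and Me1, the cytosolic malic enzyme (-0.73). Gpt2 fell in females as well (-0.75). Among glycolysis genes, Aldoc was higher (0.55) and Tpi1 lower (-0.39) in cKOm. In gluconeogenesis 3 of 6 passed, Fbp2 higher (0.92), Fbp1 (-0.38) and the glucose-releasing G6pc (-0.71) lower. Of 7 tested genes of lactate and pyruvate transport, Slc5a8, a sodium-coupled monocarboxylate carrier, was lower in cKOm (-0.69). None of 3 genes of methylglyoxal and D-lactate formation and 0 of 11 factors known to act on Pdk genes passed in either sex, while 1 of 10 hypoxia targets did in males, Car9 (-2.53). Of 5 other family members, the 1 that was tested did not pass.

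Pdk4 is a known PPAR target, so a list of other PPAR targets of fatty acid oxidation was read beside it. Of 21 tested, 15 were higher and 1 lower in cKOm (9.05% of all genes differed), with a median log2 fold change of 0.80 beside 0.01 for all genes, and 9 were higher in cKOf (0.851% of all genes differed) with a median of 0.46. Among the higher genes in males were Cyp4a14 (4.33), Cyp4a10 (1.55), Angptl4 (1.54), Acot2 (1.48), Acot1 (1.30), Ucp2 (1.28), Vnn1 (0.85), Acaa2 (0.82), Slc25a20 (0.80), Ehhadh (0.75), Hadha (0.35), Acadvl (0.33), Hadhb (0.31) and Plin2 (0.31), and Acadm was lower (-0.52). In females those past the threshold were Angptl4 (1.36), Cyp4a10 (1.09), Acot1 (1.06), Ucp2 (0.85), Vnn1 (0.77), Acot2 (0.61), Acaa2 (0.57), Ehhadh (0.54) and Slc25a20 (0.46). No set test was run, and no link to Pdk4 is drawn from these counts.

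By pattern over the 24 kidneys, the genes most like each called gene were named by Pearson r of log2 CPM, as a description with no p, since group differences and shared libraries enter it. For Ldhd they were Amacr (0.981), Acox3 (0.981) and Acss2 (0.977), which after removing the group means had r = 0.60, 0.60 and 0.51. For Ldha they were Hsd11b1 (0.910), Pecr (0.901) and Arl6ip1 (0.897), with 0.66, 0.67 and 0.61 after removal. Pdk4 was most like Ehhadh (0.865), Acot2 (0.865) and Angptl4 (0.864), with 0.54, 0.48 and 0.71. Pdk1 was most like Iqgap2 (0.866), Bhlhb9 (0.864) and Cadps2 (0.861), with 0.64, 0.60 and 0.64, and Pdk3 was most like Eci3 (0.830), Sec11a (0.805) and M6pr (0.805), with 0.58, 0.69 and 0.52. Among the 10 genes themselves, Ldha and Ldhd had r = 0.85 over the 24 kidneys but 0.29 with group means removed. Pdk1 and Pdk3 had r = -0.78 and -0.47, with 0.71 inside cKOm (n = 6) but -0.89 in Ctrlm, -0.80 in Ctrlf and -0.48 in cKOf. Mpc1 and Mpc2 had r = 0.64 and 0.60.

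Pdk3, Ldha and Ldhd fell in cKOm, and letters shared by their promoters were sought in RefSeq promoter windows of GRCm38.p6, found for all 10 genes (14 windows). The letters ACGTG, the core of hypoxia response elements and part of the E-box CACGTG, were read on both strands. They were found in 4 of the 14 windows (Pdk2, Pdk3, Ldha and Ldhd) and in 19.6% of 32817 promoter windows of the same length. The windows of the lactate dehydrogenase pair that held them run 5′ to 3′ on the gene's own strand, with each match in capitals.
Ldha, chr7:46845554-46845853, plus strand: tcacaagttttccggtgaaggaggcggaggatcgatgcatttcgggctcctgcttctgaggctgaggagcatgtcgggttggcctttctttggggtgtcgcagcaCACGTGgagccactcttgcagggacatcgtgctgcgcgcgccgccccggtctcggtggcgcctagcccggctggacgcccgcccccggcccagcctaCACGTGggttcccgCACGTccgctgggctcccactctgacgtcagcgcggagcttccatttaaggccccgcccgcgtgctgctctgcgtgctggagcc
Ldhd, chr8:111630287-111630586, minus strand: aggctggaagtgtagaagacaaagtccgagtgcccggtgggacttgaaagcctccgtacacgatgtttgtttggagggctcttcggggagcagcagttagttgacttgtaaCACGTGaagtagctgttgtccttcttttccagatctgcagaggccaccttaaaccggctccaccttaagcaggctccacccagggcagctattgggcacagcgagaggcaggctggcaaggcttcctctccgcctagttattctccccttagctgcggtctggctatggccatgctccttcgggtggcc
This window of Ldha held 5 matches, its other window (chr7:46846832-46847131) 0, and that of Ldhd 2, counting both strands of the palindrome, while Pdk2, which did not pass the threshold, held 2 and Pdk3 held 1. The E-box itself, added to the search after the first matches were seen, was in 3 of the 14 windows (Pdk2, Ldha and Ldhd) and 7.15% of all windows. The nuclear receptor letters AGGTCA were in 2 of the 14 windows (Mpc1 and Ldhb) and 16.3% of all windows, AGAACA in 1 of the 14 and 19%, GGGCGG in 6 of the 14 and 35.6%, and CCAAT in 7 of the 14 and 37.4%. The Pdk4 window (chr6:5496229-5496528) held 1 match to CCAAT and none of the other letters. A match is a stretch of letters and not a measured binding site, and no match says only that the letters are not in that window.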

How the data were processed

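The deposited values were read counts per gene, made by the authors, with no normalization; their processing notes name cutadapt 1.8, STAR 2.5.3a and HTSeq 0.9.1 on GRCm38. Reads aligned to more than 1 place (26.9% to 34.8% per kidney), outside genes (4.45% to 6.66%) or ambiguous (0.706% to 0.939%) were set aside. Gene names, positions and exon lengths came from GENCODE M21, in which 55154 identifiers were found. A gene was kept when any kidney reached 1 CPM. Counts were scaled by TMM and fitted in 1 model of 4 groups with the quasi-likelihood test of edgeR 4.0.16 in R 4.3.3, with limma 3.58.1 and DESeq2 1.42.0 as alternatives. The Benjamini-Hochberg adjustment pooled both knockout comparisons, while the interaction and the comparison of control sexes each had their own. Within groups, 60 pairs of kidneys differed by 9.83 to 99.2 times the sampling noise (chi-square per degree of freedom), so none was a duplicate. The genes, lists and markers were chosen with earlier results of these data known. Genes beyond the 10 are named where they passed in either sex, overlap or copy a member, lead a marker list, show how its markers differ or are among the 3 most alike by r. A few such genes are left out and not reported here. Copies were sought with BLAST 2.17.0 (90% identity over 200 bases).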

Additional observations from a re-analysis of the deposited data

Results flagged for a closer look

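In 40 groups of 6 kidneys, 1 kidney stood far from the others 7 times, where chance gives about 1 in 20 groups. These were Pdk4 in Ctrlm kidney 6 (90.3 CPM), Ldha in Ctrlm kidney 4 (247 CPM), Pdha1 and Mpc1 in Ctrlf kidney 4 (510 and 64 CPM), Ldhb in Ctrlf kidney 5 (1234 CPM), and Mpc2 and Ldhb in cKOf kidney 6 (168 and 2340 CPM). Ctrlf kidneys 4 and 5 and cKOf kidney 6 also held skeletal muscle transcripts, with summed levels of 544, 117 and 97.5 CPM, but so did cKOf kidneys 1 and 4 (87.4 and 118 CPM), which did not stand apart. Their part was not tested. The male and female effects of the genotype differed for Pdk1 (interaction 0.53 on the log2 scale) and for Ldhd (-1.23) in edgeR. The paper reports full-length Pex5 mRNA left in cKOf kidneys and proposes incomplete excision, whose part in these differences was not tested. The Ldhd call held in every alternative, while that of Pdk1 was lost without any 1 of 8 kidneys, with the replicate block and with the hepatocyte score.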

How the results depend on the processing

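The 5 male calls (Pdk1, Pdk3, Pdk4, Ldha, Ldhd) kept their direction and their call in every alternative fit. Of 230 alternative values for males, 213 were the same, 4 stronger and 13 reversed; for females 217 of 230 were the same, 5 stronger and 8 reversed. For the interaction 310 of 330 were the same, 10 weaker, 7 stronger and 3 reversed, and for Ctrlm against Ctrlf 183 of 210 were the same, 18 weaker and 9 reversed. The 6 kidneys of a group, whole tissue with other tissues in it, and controls without transgenes limit the results, and the cause of the spread was not tested.

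By tool, limma-voom called 1 of the 10 genes in females (Pdk4) and 4 for Ctrlm against Ctrlf (not Pdk3), and DESeq2 called 574 genes and 4 of the 10 for the interaction. With the adjustment run within each sex, 43 genes were called in females. With every gene with a count kept, 4 of the 10 were called for Ctrlm against Ctrlf (not Pdha1), and the male values of Pdk2 and Ldhb were 0.00 with a turned sign. With the hepatocyte score as a covariate, 817 genes were called in males, 247 for the interaction (1 of the 10) and 1365 for Ctrlm against Ctrlf (3 of the 10); the male value of Ldhb was 0.00, and Pdk4 between control sexes turned to 0.73.

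Same-numbered kidneys showed little shared deviation from their group means: over 12 pairs r ran from -0.199 to 0.118, and 2 pairs matched best by number. This cannot show whether such mice were littermates or handled together. With the number as a block all the same, 1 of the 10 was called in females (Pdk4), 1 for the interaction (Ldhd) and 4 for Ctrlm against Ctrlf (not Pdha1).

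The adipocyte alternatives were chosen after seeing the data, the limit of 40 CPM with the Pdk4 levels known. Each called 1 of the 10 in females (Pdk4); without the kidneys over the limit, 3 of the 10 were called for Ctrlm against Ctrlf, and the female value of Pdk1 was 0.00 with a turned sign.

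With each kidney left out in turn, 0 to 1 of the 10 were called in females, 1 to 4 for the interaction and 3 to 5 for Ctrlm against Ctrlf. Signs near 0 turned: in males Pdk2 ranged from -0.04 to 0.06, Pdha1 from -0.05 to 0.02 and Ldhb from -0.05 to 0.08. In females Pdk1 ranged from -0.01 to 0.07, Pdk2 from -0.13 to 0.03, Mpc2 from -0.14 to 0.04 and Ldha from -0.13 to 0.04. For the interaction Pdk2 ranged from -0.01 to 0.14 and Ldhb from -0.15 to 0.01, and for Ctrlm against Ctrlf Pdk4 ranged from -0.65 to 0.27 and Ldhb from -0.04 to 0.10.

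As ratios of CPM in place of levels per length, the Pdk2 share was 74.3% in Ctrlm and 62% in cKOm, with 74.6% for Ctrlf and 70.5% for cKOf. The Ldhb share was 84.3% in Ctrlm and 89% in cKOm, with 88.5% for Ctrlf and 89.8% for cKOf. Mpc1 to Mpc2 was 0.38, 0.382, 0.364 and 0.411 in the same order.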
